A study of Mus musculus with 24 samples.

Results

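Cholesterol is made in the cell from acetyl-CoA, taken up from lipoproteins, moved between membranes and exported, and 27 mouse genes that serve these steps were followed through cigarette smoke exposure of tracheal epithelium. The 27 were chosen by symbol from the table of 25239 genes, and all 27 were present and tested. They are 7 genes of the mevalonate arm, 3 of squalene and lanosterol formation, 8 that turn lanosterol into cholesterol, 4 of sterol sensing, 3 of intracellular movement and 2 exporters. RNA-seq was made from primary tracheal epithelial cells of FVB/NJ mice, wild-type and 7 to 8 weeks of age, which differentiated on inserts over 10 to 14 days with their upper side exposed to air. The groups were female cells under cigarette smoke, female cells under humidified air, male cells under smoke and male cells under air, with 6 inserts in each of the 4 groups. Exposure lasted 10 days, and each smoke exposure burned 2 cigarettes over about 8 minutes. The labels name no donor animal for an insert, so p-values here measure only the spread between inserts, which may come from 1 cell pool. A difference between female and male cells therefore cannot be told apart from a difference between cell pools.

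Cells sense their cholesterol in the endoplasmic reticulum. When sterol is scarce, SCAP carries the membrane-bound factor SREBP-2, encoded by Srebf2, to the Golgi, where cleavage frees a fragment that turns on most genes of cholesterol synthesis. INSIG proteins hold SCAP back when sterol is plentiful, and oxysterols then act through LXR receptors to turn on the exporters Abca1 and Abcg1. Epithelial cells need cholesterol for their membranes and for the junctions that seal the airway surface.

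In 23 of the 24 libraries the deposited values resolved into whole reads, 16038813 to 24485024 per library. Epithelial markers were abundant, with Cdh1 (E-cadherin) between 15436 and 23134 normalised counts in the 12 female libraries and between 17334 and 22746 in the 12 male ones. The leukocyte gene Ptprc stayed at or below 8.31 in every library. Female smoke insert 4 and female air insert 1 stood apart from their groups by transcript length. Against the median of the other 5 inserts of its group, female smoke insert 4 had a median log2 deviation of 0.55 over genes with transcripts of at most 1870 bases and -0.53 over those of at least 4477 bases. In female air insert 1 the same deviations were 1.20 and -0.92. Counts of calls for smoke against air over all members and over the related genes together are given with and without these libraries. So are those of most marker lists, and the values of members and other genes that these libraries moved most. Some other counts are given with all libraries only. What made these libraries differ was not tested.

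**Figure D1:**
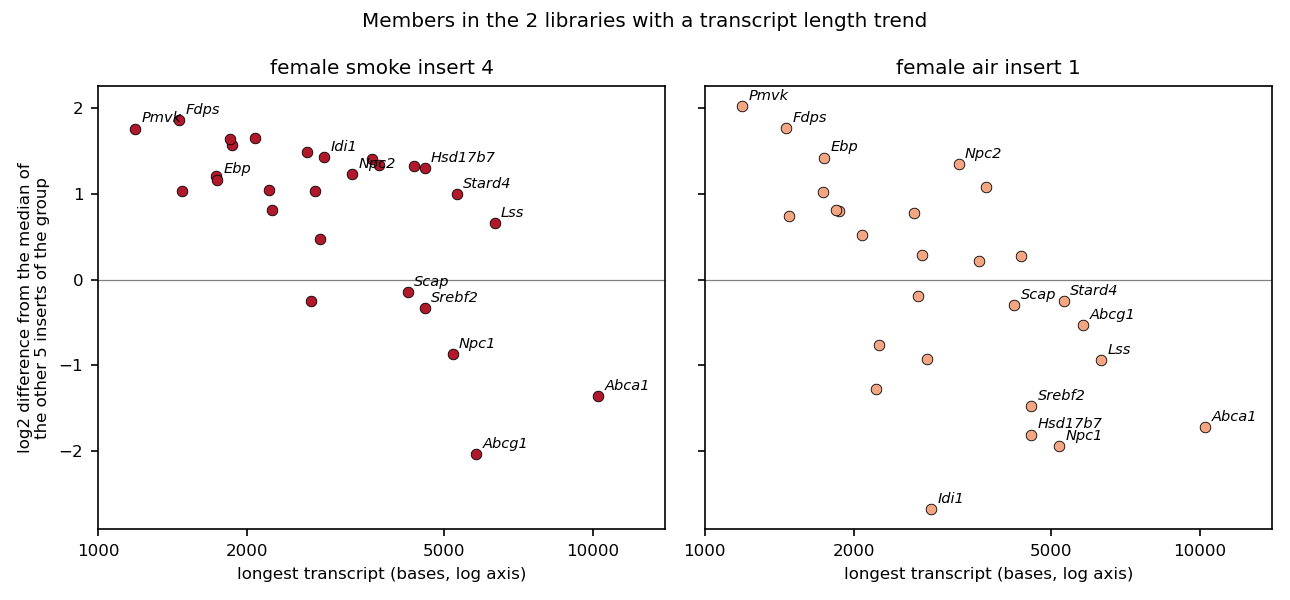
Each point is 1 of the 27 member genes in female smoke insert 4 (left) or female air insert 1 (right). The horizontal axis is the longest annotated transcript in bases on a log axis, and the vertical axis is the log2 difference from the median of the other 5 inserts of that group. Short members such as Pmvk and Fdps lie high in both libraries, and Idi1 lies lowest in female air insert 1.

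Promoter sequence is shown first for 7 members on which the results turn: 5 enzymes that rose in both sexes, the enzyme Ebp that was not called, and the exporter Abca1 that fell. The sequences are from RefSeq, build GRCm38.p6, the assembly that mm10 also names, and each ends at the last base before the annotated transcription start. They read 5′ to 3′ on the strand of the gene, and capitals mark the sterol regulatory element core TCACNCCAC or the CCAAT box, written ATTGG where it lies on the other strand.
Hmgcs1, chr13:119690171-119690350, plus strand: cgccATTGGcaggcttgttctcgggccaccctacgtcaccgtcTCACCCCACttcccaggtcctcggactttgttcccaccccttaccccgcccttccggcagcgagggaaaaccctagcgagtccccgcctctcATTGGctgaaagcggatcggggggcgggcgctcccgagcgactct
Idi1, chr13:8885486-8885605, plus strand: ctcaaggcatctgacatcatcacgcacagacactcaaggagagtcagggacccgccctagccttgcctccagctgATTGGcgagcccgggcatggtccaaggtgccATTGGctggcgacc
Cyp51, chr5:4104698-4104817, minus strand: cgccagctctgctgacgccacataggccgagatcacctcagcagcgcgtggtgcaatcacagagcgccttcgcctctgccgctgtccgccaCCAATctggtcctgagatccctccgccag
Msmo1, chr8:64733579-64733698, minus strand: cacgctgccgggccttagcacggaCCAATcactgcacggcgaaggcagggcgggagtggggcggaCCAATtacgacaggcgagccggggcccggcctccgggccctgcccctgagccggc
Hsd17b7, chr1:169969206-169969325, minus strand: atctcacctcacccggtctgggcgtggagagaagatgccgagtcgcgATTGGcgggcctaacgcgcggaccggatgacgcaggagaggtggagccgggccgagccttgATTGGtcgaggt
Ebp, chrX:8193513-8193632, minus strand: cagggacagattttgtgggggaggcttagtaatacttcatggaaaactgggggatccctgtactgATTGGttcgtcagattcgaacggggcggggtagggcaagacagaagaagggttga
Abca1, chr4:53159896-53160015, minus strand: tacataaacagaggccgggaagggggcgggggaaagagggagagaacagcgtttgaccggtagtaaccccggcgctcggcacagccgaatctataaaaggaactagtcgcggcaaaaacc
The RefSeq table holds promoters of 21 of the 27 members, each from 250 bases before the start to 50 after it. Searched on both strands, the letters CCAAT stood in 18 of these 21 (85.7%), against 41.1% of the 27025 genes in the table. CCAAT is the motif bound by NF-Y, known to work with SREBP at sterol genes. It was present in Ebp as well, and of the 7 shown only Abca1 had no match in the whole window. The sterol regulatory element core matched in 1 of 21 members (4.76%), Hmgcs1, at bases -137 to -129 from the start, against 1.44% of all genes. The direct repeat bound by LXR was searched only as exact copies of AGGTCA with 4 bases between. In this form it was found in 0 of 21 members and in 0.015% of all genes. A sterol regulatory element or a repeat with other letters would be missed, so these counts do not show that a member lacks either. These are matches of letters in a window and no measure of binding.

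In female cells, 16 of the 18 synthesis enzymes were higher and both exporters lower under smoke. Of the 27 members 21 were called, where 34.8% of all tested genes were called. Among them 19 members were higher and 2 lower in female smoke at an adjusted p under 0.05 (limma across 13549 tested genes), where 15.5% of all tested genes were called higher and 19.3% lower. The median log2 fold change was 1.07 over the 18 enzymes, against -0.0026 over all tested genes. In male cells 17 members were called, where 22% of all tested genes were called. There 14 members were higher and 3 lower, where 9.76% of all tested genes were called higher and 12.2% lower. Of the 18 enzymes 13 were called higher, with a median of 0.88 against -0.0058 over all tested genes. Not called in female cells were Ebp, Dhcr7, Srebf2, Scap, Npc1 and Npc2, and in male cells these 6 with Acat2, Pmvk, Tm7sf2 and Insig1. The inserts are bulk samples, in which fewer cells of a type and less RNA per cell cannot be told apart. Without female smoke insert 4 and female air insert 1, the same 21 members were called in female cells. In male cells 22 members then passed, 18 higher and 4 lower, where 22.5% of all tested genes were then called higher and 24.7% lower, since the 4 groups share 1 estimate of the spread, and the 5 added were Acat2, Srebf2, Scap and Npc1 as higher and Ebp as lower.

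The separation of single inserts was less complete than the calls. In female cells 9 of 27 members had every smoke insert above every air insert and 0 of 27 had every smoke insert below, where 6.73% of all tested genes separated upward and 5.75% downward. With female smoke insert 4 and female air insert 1 left out the members came to 17 above and 2 below, the 2 being Abca1 and Abcg1, against 15.3% and 12.9% of all tested genes. In male cells 6 members lay wholly above and 2 wholly below, again the exporters, against 11.0% and 14.2% of all tested genes. The 6 were Idi1, Cyp51, Msmo1, Hsd17b7, Sc5d and Npc1, of which Npc1 was not called by limma.

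**Figure D2:**
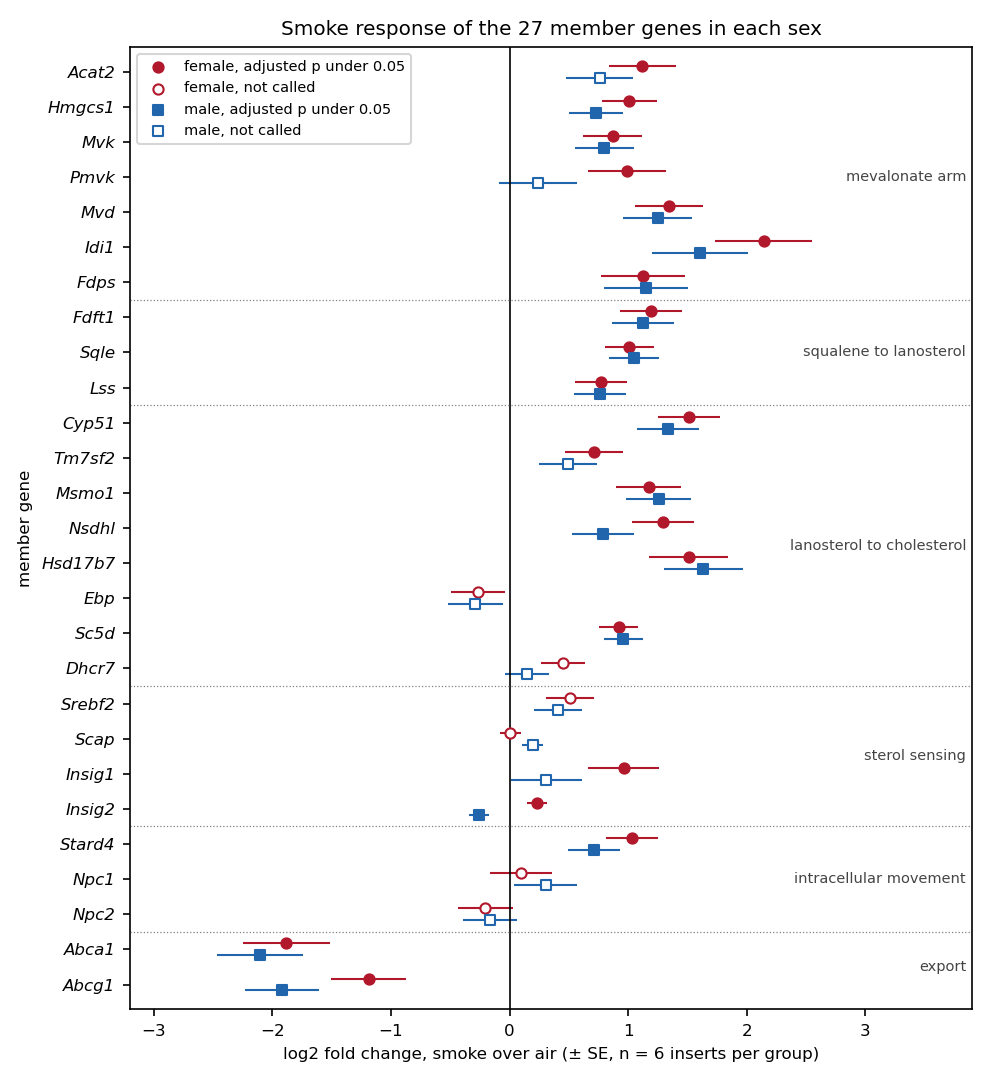
Log2 fold changes of smoke over air (horizontal axis, ± SE, 6 inserts per group) are drawn for the 27 members (vertical axis), grouped by step, with circles for female and squares for male cells. Filled symbols passed an adjusted p of 0.05. Enzyme symbols lie right of 0 except those of Ebp, and both exporters lie between -1.19 and -2.10.

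The mevalonate arm builds farnesyl diphosphate from acetyl-CoA, and all 7 of its members rose in female cells while 5 of 7 rose in male cells. Idi1, which isomerises isopentenyl diphosphate, changed most. It ran from 979 to 4291 normalised counts with a median of 1791 in female smoke, against 89.8 to 636 with a median of 570.1 in female air. Male inserts ran from 709 to 2098 with a median of 1028 under smoke, against 238 to 570.3 with a median of 368 under air. Neither pair of groups overlapped, and female air insert 1 alone lay far below the other 5 female air inserts, which held 459 to 636. The log2 fold change of Idi1 was 2.14 ± 0.41 in female cells (adjusted p = 0.000488) and 1.61 ± 0.41 in male cells (adjusted p = 0.00693). With female smoke insert 4 and female air insert 1 left out the female value was 1.46 ± 0.27 (adjusted p = 0.000307).

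Mvd, which decarboxylates mevalonate diphosphate, ran from 532 to 2848 with a median of 975 in female smoke, against 375 to 677 with a median of 409.5 in female air. The male range was 409 to 986 with a median of 748 under smoke, against 208 to 417 with a median of 281 under air. The ranges overlapped in both sexes, and the medians stood 2.38 times apart in female and 2.66 times apart in male cells. Its fold changes were 1.34 ± 0.29 in female (adjusted p = 0.00128) and 1.25 ± 0.29 in male cells (adjusted p = 0.00351).

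Hmgcs1, the cytosolic synthase that makes HMG-CoA, held 4203 to 15163 with a median of 6415 in female smoke, against 2992 to 3706 with a median of 3322 in female air. Male smoke inserts held 3219.8 to 7051 with a median of 5089, against 2351 to 4133 with a median of 2913 in male air. Only the female groups were free of overlap, and the fold changes were 1.01 ± 0.23 in female (adjusted p = 0.00196) and 0.73 ± 0.23 in male cells (adjusted p = 0.025). Its female highest value belonged to insert 4, and without that library and female air insert 1 the female change was 0.80 ± 0.19 (adjusted p = 0.00207). Fdps, which makes farnesyl diphosphate, rose by 1.12 ± 0.35 in female (adjusted p = 0.0167) and 1.15 ± 0.35 in male cells (adjusted p = 0.0227), and Mvk, mevalonate kinase, by 0.87 ± 0.25 and 0.80 ± 0.25 (adjusted p = 0.00918 and 0.0231).

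Acat2, which joins acetyl-CoA units, and Pmvk, phosphomevalonate kinase, were called in female cells but not in male ones. Acat2 ran from 831 to 4050.4 with a median of 1439 in female smoke, against 526 to 984 with a median of 688 in female air, a fold change of 1.12 ± 0.28 (adjusted p = 0.0042). Male inserts had 464 to 1457 with a median of 805 under smoke, against 374 to 637 with a median of 459 under air, and 0.76 ± 0.28 missed the threshold (adjusted p = 0.0558). Pmvk was 0.99 ± 0.33 in female (adjusted p = 0.022) and 0.24 ± 0.33 in male cells (adjusted p = 0.646). The difference between the sexes was not called for either, at 0.36 with a 95% interval of -0.47 to 1.19 for Acat2 and 0.75 with an interval of -0.21 to 1.71 for Pmvk. Without female smoke insert 4 and female air insert 1 that of Pmvk was 0.81 ± 0.22 and passed (adjusted p = 0.0337).

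Several calls of the arm turned on 1 library. The male call of Hmgcs1 was lost without male smoke insert 1 (0.62, adjusted p = 0.074) and without male air insert 1, 2 or 3 (0.66 to 0.68, adjusted p = 0.0574 to 0.0629). That of Fdps was lost without the same 4 libraries (1.01 to 1.07, adjusted p = 0.0528 to 0.0649), and that of Mvk without male smoke insert 1 and male air inserts 1 and 2 (0.64 to 0.74, adjusted p = 0.0533 to 0.074). The female call of Pmvk was lost without female smoke insert 4 (0.71, adjusted p = 0.0627) and without female air insert 2 or 5 (0.88 to 0.90, adjusted p = 0.0501 to 0.0534). Acat2 passed in male cells without female smoke insert 2 or 4, female air insert 1, male smoke insert 3 or male air insert 4 (0.76 to 0.92, adjusted p = 0.0124 to 0.0471).

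**Figure D3:**
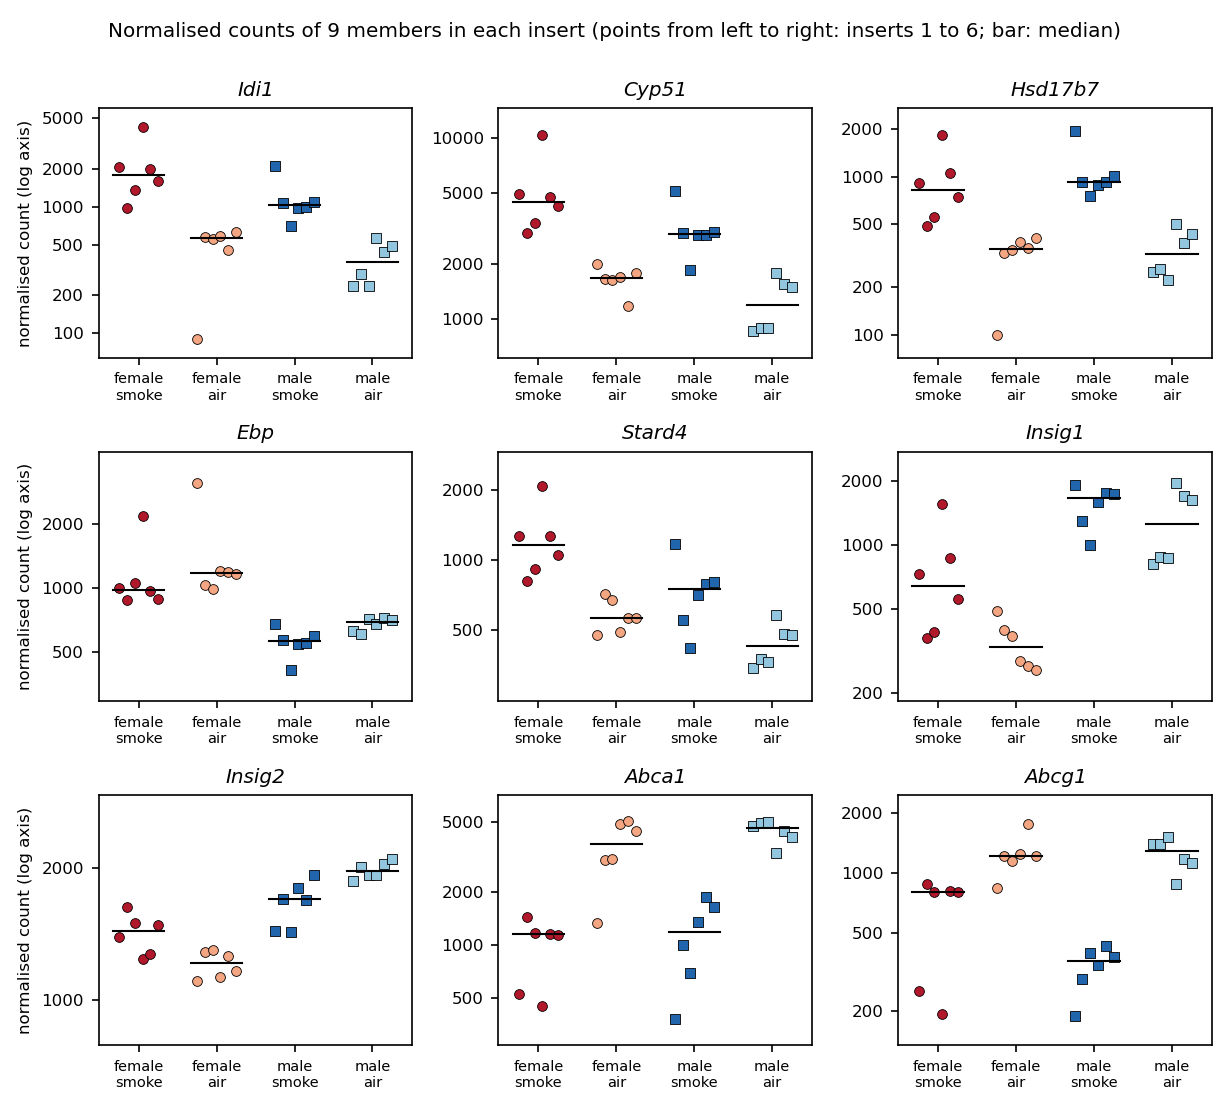
Normalised counts on a log axis are shown for 9 members in every insert, with inserts 1 to 6 from left to right in each group and a bar at the median. Circles are female and squares male cells, with smoke left of air. Idi1 and Hsd17b7 separate by exposure in both sexes, Insig1 separates more by sex, and Abca1 and Abcg1 are lower under smoke.

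Squalene and lanosterol formation, the first steps that lead to sterols alone, rose in full in both sexes. Sqle, the squalene epoxidase and a rate-limiting enzyme, held 3161 to 7209 normalised counts with a median of 3783 in female smoke, against 1628 to 2428 with a median of 1999 in female air. Male inserts held 1711 to 4059 with a median of 2439 under smoke, against 919.6 to 1830.1 with a median of 1179 under air. The female groups did not overlap and the male ones did, through male smoke insert 3. Sqle changed by 1.01 ± 0.21 in female (adjusted p = 0.000963) and 1.05 ± 0.21 in male cells (adjusted p = 0.00104), with a difference between the sexes of -0.04 and an interval of -0.65 to 0.57.

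Fdft1, squalene synthase, rose by 1.20 ± 0.26 in female (adjusted p = 0.00149) and 1.13 ± 0.26 in male cells (adjusted p = 0.00362). Lss, lanosterol synthase, ran from 1495 to 2762 with a median of 1834 in female smoke, against 647 to 1402 with a median of 1229.8 in female air, a change of 0.77 ± 0.22 (adjusted p = 0.00965). The female change of Lss without female smoke insert 4 and female air insert 1 was 0.51 ± 0.21 (adjusted p = 0.0488). In male cells Lss ran from 816 to 2039 with a median of 1197 under smoke, against 546 to 1019 with a median of 752 under air, a change of 0.76 ± 0.22 (adjusted p = 0.0166) that was lost without male smoke insert 1 (0.62, adjusted p = 0.0542).

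Between lanosterol and cholesterol 6 of 8 enzymes rose in female and 5 of 8 in male cells, while Ebp and Dhcr7 were called in neither. Cyp51, the lanosterol demethylase, ran from 2999 to 10477 normalised counts with a median of 4457 in female smoke, against 1167 to 1998 with a median of 1679 in female air. In male cells it ran from 1863 to 5104 with a median of 2942 under smoke, against 848 to 1792 with a median of 1193 under air. All smoke inserts lay above all air inserts in both sexes. The fold changes were 1.51 ± 0.26 in female (adjusted p = 0.000232) and 1.34 ± 0.26 in male cells (adjusted p = 0.000925).

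Hsd17b7, the ketoreductase of C4 demethylation, had the largest male rise among the members. Male smoke inserts held 751 to 1938 with a median of 925, against 223 to 505 with a median of 323 in male air, a fold change of 1.63 ± 0.34 (adjusted p = 0.00137). Female smoke inserts held 490.0 to 1827 with a median of 825, against 100.4 to 412 with a median of 350.2 in female air, a fold change of 1.51 ± 0.34 (adjusted p = 0.00165). Neither pair overlapped, but 100.4 belonged to female air insert 1, and with that library and female smoke insert 4 left out the female change was 0.98 ± 0.25 (adjusted p = 0.00377). Its partners in the same demethylation rose too. Msmo1, the methylsterol monooxygenase, rose by 1.17 ± 0.27 in female (adjusted p = 0.00226) and 1.26 ± 0.27 in male cells (adjusted p = 0.00204). Nsdhl, the sterol dehydrogenase, ran from 1048 to 3426 with a median of 1809 in female smoke, against 348 to 944 with a median of 835 in female air, and rose by 1.29 ± 0.26 (adjusted p = 0.000846), or by 0.89 ± 0.21 with those 2 libraries left out (adjusted p = 0.00191). In male cells Nsdhl rose by 0.79 ± 0.26 (adjusted p = 0.0338), a call lost without any of male smoke inserts 1, 2, 4 and 6 or male air inserts 1, 2 and 3 (0.64 to 0.79, adjusted p = 0.0515 to 0.101).

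Sc5d, the sterol desaturase, separated the exposures in both sexes. It held 1349.7 to 2376 with a median of 1453 in female smoke, against 554 to 984 with a median of 886 in female air, and 949 to 1534 with a median of 1021 in male smoke, against 467 to 714 with a median of 553 in male air. Its fold changes, 0.92 ± 0.17 in female (adjusted p = 0.000319) and 0.96 ± 0.17 in male cells (adjusted p = 0.00029), had the smallest standard errors among the 18 enzymes. The lowest female air and the highest female smoke value of Sc5d were those of inserts 1 and 4, and without both the female change was 0.69 ± 0.14 (adjusted p = 0.000563). Tm7sf2, a sterol reductase, was 0.71 ± 0.25 in female (adjusted p = 0.0279) and 0.49 ± 0.25 in male cells (adjusted p = 0.155). The female call of Tm7sf2 was lost without female smoke insert 1 or 4 or female air insert 2, 3 or 5 (0.54 to 0.66, adjusted p = 0.0552 to 0.079).

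Ebp, the sterol isomerase that acts before Sc5d, held 886 to 2192 with a median of 988 in female smoke, against 991 to 3137 with a median of 1185 in female air. Male smoke inserts held 412 to 682 with a median of 566, against 609 to 728 with a median of 696 in male air. Both medians were lower under smoke and both pairs of groups overlapped. The fold changes were -0.27 ± 0.23 in female (adjusted p = 0.395) and -0.29 ± 0.23 in male cells (adjusted p = 0.394), with 95% intervals of -0.74 to 0.21 and -0.76 to 0.19. With female smoke insert 4 and female air insert 1 left out, the male value of Ebp passed as lower (-0.29 ± 0.09, adjusted p = 0.0138) and the female value did not (-0.22 ± 0.10, adjusted p = 0.0774). Dhcr7, which makes cholesterol from its dehydro precursor, was 0.45 ± 0.19 in female (adjusted p = 0.0649) and 0.15 ± 0.19 in male cells (adjusted p = 0.613). With the same libraries left out the female value of Dhcr7 was 0.25 ± 0.17 (adjusted p = 0.252), and it passed without female smoke insert 2 or male smoke insert 3 (0.45 to 0.52, adjusted p = 0.0282 to 0.043).

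**Figure D4:**
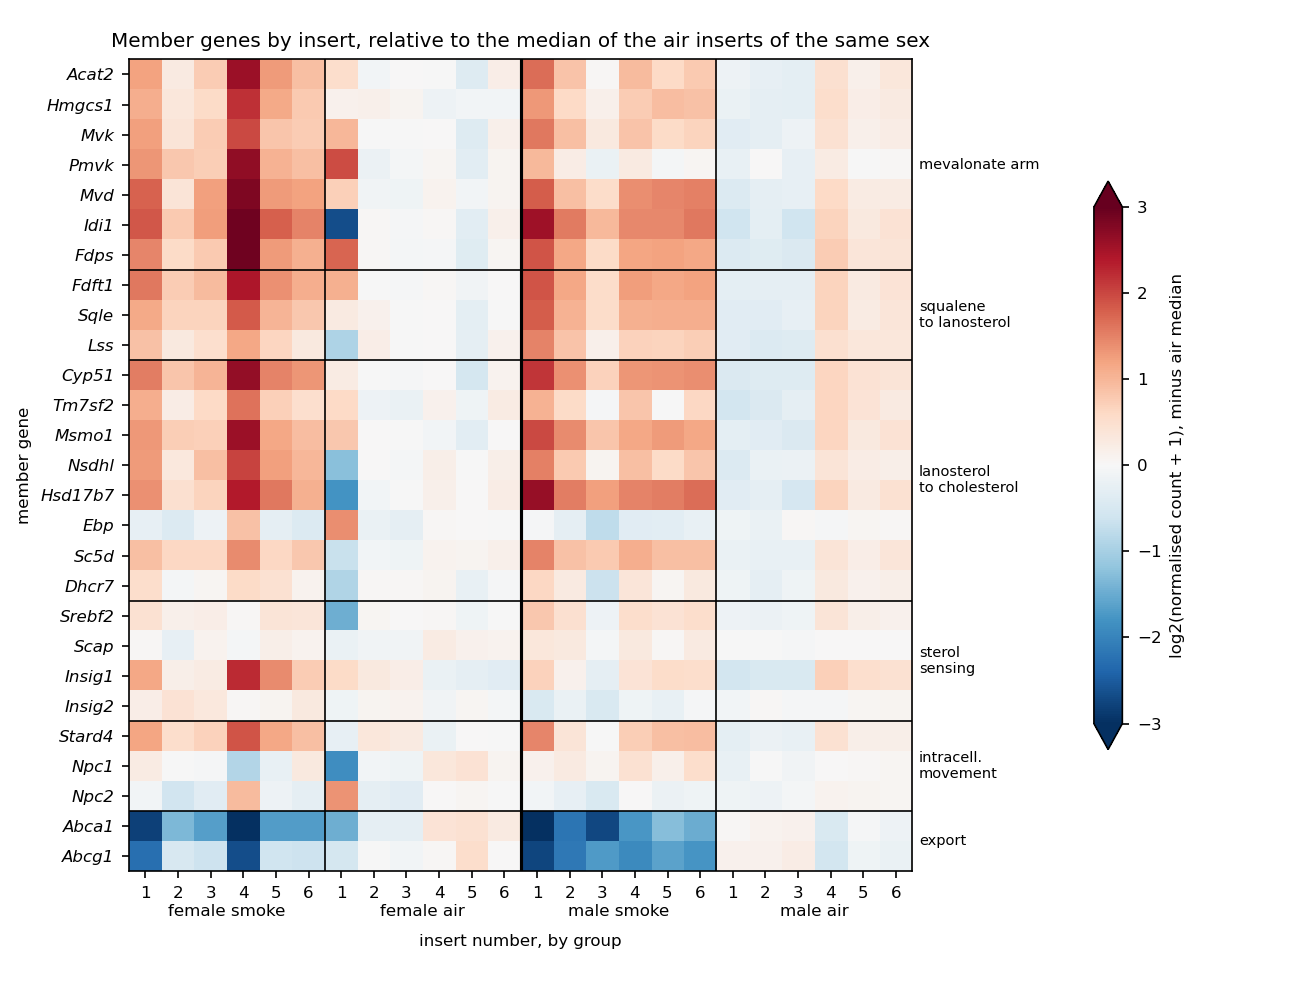
The log2 normalised count of each member (rows, by step) in each of 24 inserts (columns) is drawn relative to the median of the 6 air inserts of the same sex, with red above and blue below and colours ending at 3 in either direction. Smoke stands left of air. Female smoke insert 4 and male smoke insert 1 are the reddest columns for the enzymes and the bluest for the exporters, and the row of Ebp stays pale or blue in male smoke.

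Among the 4 genes of sterol sensing, Insig1 and Insig2 rose in female cells, and Insig2 fell in male cells. Srebf2, which encodes SREBP-2, was not called, at 0.51 ± 0.20 in female (adjusted p = 0.0542) and 0.41 ± 0.20 in male cells (adjusted p = 0.155). It held 6518 to 8791 normalised counts with a median of 7769 in female smoke, against 2331 to 6658 with a median of 6405 in female air. Its female value without female smoke insert 4 and female air insert 1 was 0.31 ± 0.13 (adjusted p = 0.054), and the call was gained without female smoke insert 4, female air insert 2, 3 or 4 or male smoke insert 3 (0.51 to 0.57, adjusted p = 0.0414 to 0.0486), and in male cells without female air insert 1 (0.41, adjusted p = 0.0145) or without both of these libraries (adjusted p = 0.00863). Scap, the SREBP escort, averaged 3190 ± 352 in male smoke and 2768 ± 37.0 in male air (SD, n = 6 each). Its fold changes were 0.01 ± 0.09 in female (adjusted p = 0.959) and 0.20 ± 0.09 in male cells (adjusted p = 0.118), where it passed without those 2 libraries (adjusted p = 0.0435).

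Insig1, an INSIG gene that is itself turned on by SREBP, differed between female and male cells kept in air. It held 366 to 1554 with a median of 643 in female smoke and 257 to 487 with a median of 329.6 in female air. In male cells it held 996 to 1928 with a median of 1663 under smoke, against 815 to 1964 with a median of 1256 under air. Every female air insert lay below every male air insert, a log2 difference of -1.86 ± 0.30 (female over male, adjusted p = 2.91e-05), and in smoke the difference was -1.21 ± 0.30 (adjusted p = 0.00303). Smoke raised Insig1 by 0.96 ± 0.30 in female cells (adjusted p = 0.0158), while the male value was 0.31 ± 0.30 (adjusted p = 0.499). The female response minus the male response was 0.65 with an interval of -0.22 to 1.53 and was not called (adjusted p = 0.569). Over inserts 4 to 6 alone it was 1.80 ± 0.39 and passed (adjusted p = 0.0291), and the male air inserts 4 to 6 averaged 1767 ± 174 against 852 ± 32.4 in male air inserts 1 to 3 (SD, n = 3 each). That subset holds female smoke insert 4, with 1554 normalised counts of Insig1.

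Insig2, the INSIG gene that SREBP does not drive, moved little and in opposite directions. It held 1238 to 1628 with a median of 1433 in female smoke, against 1101 to 1296 with a median of 1210.2 in female air. Male smoke inserts held 1430.3 to 1925 with a median of 1697, against 1869.7 to 2095 with a median of 1969.9 in male air. The ranges overlapped in both sexes. Insig2 rose by 0.23 ± 0.08 in female cells (adjusted p = 0.0338) and fell by 0.26 on the log2 scale in male cells (SE 0.08, adjusted p = 0.029). The difference between the responses, 0.49 ± 0.12 (adjusted p = 0.0432), made Insig2 the 1 member of 27 called for it, where 1.03% of all tested genes were called and 0.694% were called with a positive difference. The call held in 14 of 37 other settings, and leaving out 17 of the 24 libraries one at a time ended it (0.45 to 0.51, adjusted p = 0.0531 to 0.0827), namely female smoke inserts 1, 2, 3 and 6, female air inserts 4, 5 and 6, male smoke inserts 1, 2, 3 and 5 and the 6 male air inserts. The female call itself was lost without female smoke insert 2, 3 or 6 or female air insert 4 or 6 (0.19 to 0.22, adjusted p = 0.0613 to 0.0863). The male call was lost without male smoke insert 1 or 3 or male air insert 2, 5 or 6 (-0.25 to -0.22, adjusted p = 0.0551 to 0.0863).

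For the 18 enzymes the test of a sex difference in the response gave 0 calls by limma, with 0 at an unadjusted p under 0.05. Differences ran from -0.12 for Hsd17b7 to 0.75 for Pmvk, with a median of 0.08. The intervals were wide, and that of Idi1 reached from -0.66 to 1.73. Without female smoke insert 4 and female air insert 1 the test gave 1 call among the 18, Pmvk. Of all tested genes 3.71% were then called with a positive difference.

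Among the 3 genes of intracellular movement only Stard4 changed. Stard4, a soluble carrier of cholesterol and a known SREBP target, held 812 to 2088 normalised counts with a median of 1153 in female smoke, against 472 to 713 with a median of 560.3 in female air. Male Stard4 levels were 418 to 1166 with a median of 746 under smoke, against 343 to 578 with a median of 424 under air. The female groups were separate and the male ones overlapped. Stard4 rose by 1.03 ± 0.22 in female (adjusted p = 0.00117) and 0.71 ± 0.22 in male cells (adjusted p = 0.0224), a male call lost without male smoke insert 1 or male air insert 1 or 3 (0.57 to 0.67, adjusted p = 0.0532 to 0.0723). The female change of Stard4 was 0.81 ± 0.21 without female smoke insert 4 and female air insert 1 (adjusted p = 0.00392).

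Npc1 and Npc2, which together release cholesterol from lysosomes, were not called. Npc1 was 0.09 ± 0.26 in female (adjusted p = 0.815) and 0.30 ± 0.26 in male cells (adjusted p = 0.439). Npc2 was -0.20 ± 0.23 in female (adjusted p = 0.536) and -0.17 ± 0.23 in male cells (adjusted p = 0.651). In male cells every smoke insert nevertheless exceeded every air insert for Npc1, at 1528 to 2095 with a median of 1677 under smoke against 1250.3 to 1506 with a median of 1448 under air. The spread shared by the 4 groups includes female air insert 1, where Npc1 was at 499, and with it and female smoke insert 4 left out the male value of Npc1 passed at 0.30 ± 0.11 (adjusted p = 0.0235).

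Both exporters fell under smoke in both sexes. Abca1, which passes cholesterol to lipid-poor apolipoproteins, held 449.5 to 1437 normalised counts with a median of 1148 in female smoke, against 1339 to 5029 with a median of 3732 in female air. Male inserts held 379 to 1877 with a median of 1177 under smoke, against 3310.4 to 4984 with a median of 4576 under air. The male groups were far apart, and the female ones touched only through female air insert 1, since the other 5 female air inserts held 3035 to 5029. Abca1 fell by 1.88 on the log2 scale in female cells (SE 0.36, adjusted p = 0.00056) and by 2.10 in male cells (SE 0.36, adjusted p = 0.000279). Without female smoke insert 4 and female air insert 1 the female change of Abca1 was -1.94 ± 0.33 (adjusted p = 0.00016).

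Abcg1, which passes cholesterol on to lipoprotein particles, held 193 to 878 with a median of 797 in female smoke, against 841 to 1761 with a median of 1218 in female air. Male Abcg1 levels were 189 to 425 with a median of 358 under smoke, against 878 to 1514 with a median of 1293 under air. In female smoke 4 of the 6 inserts lay between 797 and 878, and inserts 1 and 4 stood lower at 254 and 193. Abcg1 fell by 1.19 in female (SE 0.32, adjusted p = 0.00586) and 1.92 in male cells (SE 0.32, adjusted p = 0.00018). Its female change without the same libraries was -1.0 ± 0.27 (adjusted p = 0.00582). The female response minus the male response was 0.73 with an interval of -0.19 to 1.65 and was not called (adjusted p = 0.539).

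Within each smoke group the enzymes largely moved together from insert to insert. Female smoke insert 4 was the highest of its group in 18 of 18 enzymes and the lowest in both exporters, and female smoke insert 2 was the lowest in 14 enzymes and the highest in both exporters. In male smoke, insert 1 was the highest in 18 of 18 enzymes and the lowest in both exporters, and insert 3 was the lowest in 18 of 18. The air groups differed, since female air insert 1 was the highest in 11 enzymes and the lowest in 6. Male air insert 4 was the highest in 17. These are counts over genes that share a library, given as a description, and the share over all tested genes was not counted. Ciliated cell markers were lowest in the smoke inserts that were highest of their group in the 18 enzymes. The median log2 deviation of these markers from the mean over all 24 libraries was -6.02 in female smoke insert 4 and -3.85 in male smoke insert 1. None of the other 10 smoke inserts lay below -1.23. Female smoke insert 2, lowest in most enzymes, had a deviation of 1.30, while male smoke insert 3, lowest in all 18, had -0.75 and lay within the -1.23 to 0.11 of male smoke inserts 2, 4, 5 and 6. Other marker lists were extreme there too. Squamous markers were the highest of their group in female smoke insert 4 (3.02) and male smoke insert 1 (1.67). In female smoke insert 4 secretory markers were the lowest (-5.88) and proliferation markers the highest (2.07) of their group. Male smoke insert 1 was neither for these 2 lists, at -0.27 and -0.0023. The part of any marker list in the enzyme levels was not tested. Without male smoke insert 1 the number of members called in male cells was 10 in place of 17, the 7 lost being Hmgcs1, Mvk, Fdps, Lss, Nsdhl, Insig2 and Stard4.

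**Figure D5:**
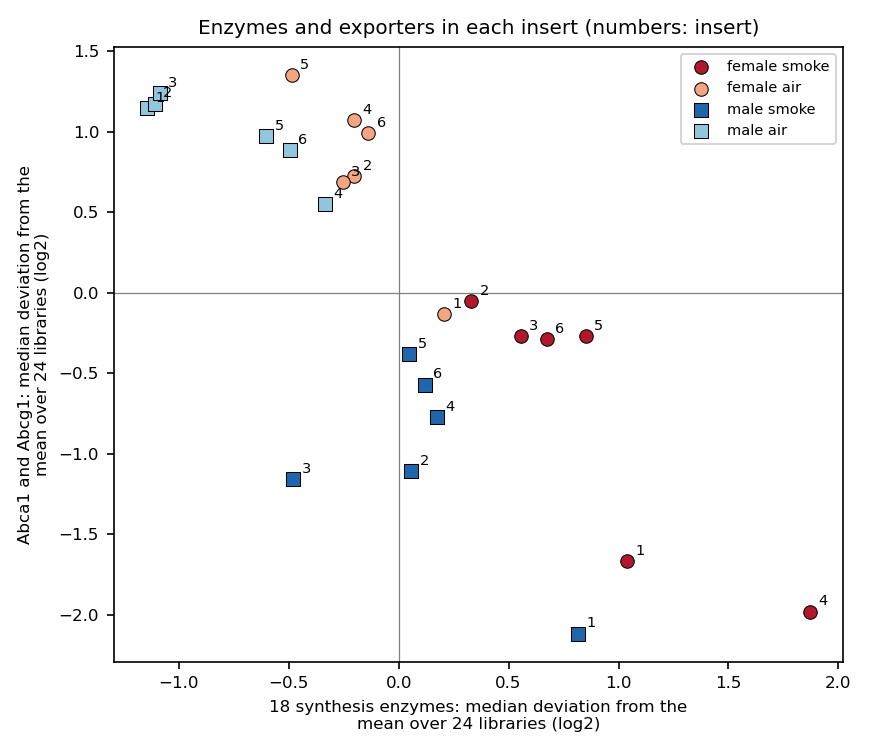
Each point is 1 insert, numbered, with circles for female and squares for male cells. The horizontal axis is the median log2 deviation of the 18 enzymes from their mean over 24 libraries, and the vertical axis is the same for Abca1 and Abcg1. Smoke inserts lie low on the exporter axis, and female smoke insert 4, at 1.87 and -1.98, and male smoke insert 1, at 0.81 and -2.12, lie farthest from the air inserts of their sex.

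Insert number split the male air group. For 22 of 27 members, 16 of the 18 enzymes among them, male air inserts 4 to 6 all lay above male air inserts 1 to 3, and for the 2 exporters they all lay below. The share of all tested genes that split in this way was not counted, so the split is not shown to be particular to the members. Cyp51 averaged 1613 ± 157 in male air inserts 4 to 6 against 873 ± 21.8 in inserts 1 to 3, and Abcg1 averaged 1062 ± 161 against 1443 ± 61.4 (SD, n = 3 each). The labels give no meaning to the insert number. Within inserts 4 to 6 the median change of the 18 enzymes was 1.51 in female and 0.58 in male cells, and within inserts 1 to 3 it was 0.67 in female and 1.24 in male cells. Each female subset holds a library with a length trend. The median enzyme deviation from the mean over 24 libraries was 1.87 in female smoke insert 4, against 0.85 and 0.67 in inserts 5 and 6. It was 0.21 in female air insert 1, against -0.20 and -0.26 in inserts 2 and 3. The part of these libraries in the subsets was not tested. Fitted on inserts 4 to 6 alone, 21 members were called in female and 3 in male cells, Hsd17b7, Sc5d and Abca1. On inserts 1 to 3 alone, 1 member was called in female cells, Sc5d, and 14 in male cells. Among all tested genes the counts were 6243 and 931 for inserts 4 to 6 and 656 and 2507 for inserts 1 to 3, in the same order of sexes. The change of Abca1 was -2.50 in female and -1.28 in male cells within inserts 4 to 6, and -1.27 and -2.92 within inserts 1 to 3, the female value within inserts 1 to 3 not called (adjusted p = 0.11).

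Levels of different members were compared per kilobase of their longest annotated transcript. In female smoke Fdps stood highest at 3592 normalised counts per kilobase, followed by Hmgcs1 at 2069, Msmo1 at 2068 and Srebf2 at 1688. The order depended on female smoke insert 4, since without it Fdps stood at 2502, Srebf2 at 1741, Hmgcs1 at 1635 and Msmo1 at 1553. In male air Srebf2 led at 1078, followed by Hmgcs1 at 847, Npc2 at 794 and Insig2 at 734. The exporters reached 95.6 for Abca1 and 107 for Abcg1 in female smoke, against 353 and 213 in female air, and 113 and 57.7 in male smoke, against 429.7 and 215 in male air. Among the enzymes Hsd17b7 had the lowest level per kilobase in female smoke and in both air groups, at 203 in female smoke, 70.3 in female air and 75.1 in male air.

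Several enzymes also stood higher in female than in male cells at the same exposure. In smoke 11 of 18 enzymes were higher in female cells and 0 lower, where 17% of all tested genes were called higher in that comparison, and in air 8 were higher and 0 lower, against 20%. Dhcr7 averaged 1912 ± 354 in female smoke and 672 ± 176 in male smoke (SD, n = 6 each), a log2 difference of 1.54 ± 0.19 (female over male, adjusted p = 8.22e-07). In air it averaged 1413 ± 304 in female and 591 ± 90.5 in male cells, a difference of 1.24 ± 0.19 (adjusted p = 1.33e-05). Ebp differed by 0.99 ± 0.23 in smoke (adjusted p = 0.00177) and 0.97 ± 0.23 in air (adjusted p = 0.00179), and both of these enzymes were not called for smoke in either sex. Hsd17b7 was not called between the sexes, at -0.28 ± 0.34 in smoke (adjusted p = 0.582) and -0.15 ± 0.34 in air (adjusted p = 0.739). With female smoke insert 4 and female air insert 1 left out, 11 enzymes were higher in smoke and 11 in air, where 26% and 28.3% of all tested genes were then called higher. Dhcr7 then differed by 1.48 ± 0.17 in smoke (adjusted p = 2.79e-07) and 1.38 ± 0.17 in air (adjusted p = 5.7e-07), and Ebp by 0.79 ± 0.10 (adjusted p = 8.24e-07) and 0.72 ± 0.10 (adjusted p = 2.19e-06).

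Markers of cell state differed between the sexes as well. Of all tested genes 17% were called higher and 15.3% lower in female cells in smoke, and 20% and 19% in air. The squamous keratin gene Krt13 was higher in female cells, by 4.60 on the log2 scale in smoke and 5.00 in air, and 4 of 5 squamous markers were called higher in smoke and 3 of 5 in air. Nkx2-1, a transcription factor of lung and tracheal epithelium, held 121 to 319 normalised counts with a median of 236 in female smoke, against 1557 to 2727 with a median of 2258 in male smoke. In air it held 147 to 386 with a median of 271 in female cells, against 2722 to 2897 with a median of 2829 in male cells. The groups of the sexes lay far apart, with log2 differences of -3.32 in smoke and -3.51 in air. Nkx2-1 was 1 of 5 tracheal epithelium markers. Of these 1 was called higher and 3 lower in female cells in smoke, and 1 higher and 2 lower in air. The highest was Epcam, at 0.61 in smoke and 1.21 in air. Of 6 basal markers 3 were called higher and 1 lower in smoke, and 2 higher and 2 lower in air. Secretory markers were called lower in female cells in 4 of 5 cases in smoke and 3 of 5 in air, with medians of -3.03 and -2.33. Proliferation markers were called higher in 5 of 6 cases in smoke, with a median of 1.64, and in air 1 was higher and 1 lower. Of 9 ciliated markers 0 were called in smoke and 1 was called higher in air, with medians of 0.12 and 1.81. Without female smoke insert 4 and female air insert 1, 6 ciliated markers were called higher in female cells in smoke and 8 in air. Squamous markers were then 3 higher and 1 lower in smoke and 3 higher in air. Secretory markers were then lower in 4 cases at either exposure. Of proliferation markers 4 were then higher in smoke, and 2 higher and 1 lower in air. Of all tested genes 26% were then called higher and 25.4% lower in smoke, and 28.3% and 27.4% in air. The part of these differences in the sex differences of the enzymes and of Insig1 was not tested.

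Around the 27 members, 38 further genes of cholesterol handling were counted from 6 lists, and 9 were higher and 12 lower in female smoke, 6 higher and 9 lower in male smoke. The same backgrounds apply to these counts and to those of each list, 15.5% of all tested genes called higher and 19.3% lower in female cells and 9.76% and 12.2% in male cells. Without female smoke insert 4 and female air insert 1 the counts were 9 higher and 15 lower in female cells, against 21.9% and 23.8% of all tested genes, and 10 higher and 10 lower in male cells, against 22.5% and 24.7%. Of 6 genes for lipoprotein receptors and uptake, 3 rose and 1 fell in each sex. Tmem97, a sterol-responsive membrane protein, rose by 1.41 ± 0.31 in female (adjusted p = 0.00139) and 0.94 ± 0.31 in male cells (adjusted p = 0.03). Lrp8, a lipoprotein receptor, held 281 to 520.3 normalised counts with a median of 469.8 in female smoke, against 70.0 to 282 with a median of 202 in female air, and rose by 1.22 ± 0.30 (adjusted p = 0.00336), or by 0.90 ± 0.26 without those 2 libraries (adjusted p = 0.00905). In male cells Lrp8 rose by 1.68 ± 0.30 (adjusted p = 0.000371).

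Of 6 genes for LXR receptors, oxysterols and apolipoprotein, 0 rose in either sex, and 2 fell in female and 3 in male cells. Apoe, the apolipoprotein that accepts exported cholesterol, held 83.3 to 278 normalised counts with a median of 130.4 in female smoke, against 314 to 3274 with a median of 609 in female air, and fell by 2.32 on the log2 scale (SE 0.45, adjusted p = 0.000629), or by 1.83 with female smoke insert 4 and female air insert 1 left out (SE 0.39, adjusted p = 0.000966). In male cells it fell by 1.43 (SE 0.45, adjusted p = 0.0262). Cyp27a1, which makes an oxysterol from cholesterol, fell by 1.41 in male cells (SE 0.26, adjusted p = 0.000526) and held 23.9 to 78.1 in male smoke, against 101 to 141 in male air. Female cells held far more Cyp27a1, at 797 to 1215 in smoke and 518 to 1441 in air, and its fold change of -0.04 ± 0.26 was not called (adjusted p = 0.915). The difference between the responses was 1.36 ± 0.37 and missed the threshold (adjusted p = 0.0711), while without those libraries it was 1.5 ± 0.38 and passed (adjusted p = 0.0222). Named after their values were seen, Nr1h3 (LXR alpha) fell by 1.0 in female (SE 0.29, adjusted p = 0.0107) and 1.37 in male cells (SE 0.29, adjusted p = 0.00194), and Mylip, an LXR target that degrades lipoprotein receptors, by 0.67 (SE 0.24, adjusted p = 0.0316) and 0.92 (SE 0.24, adjusted p = 0.00777). Nr1h3 was scarce, at 16.8 ± 7.56 in female smoke and 34.6 ± 13.7 in female air (SD, n = 6 each), while Nr1h2 (LXR beta) held 2324 ± 316 in female smoke and 2247 ± 178 in female air. Ch25h, of the same list as Nr1h3 and also named after its values were seen, went the other way. It had the highest fold change of that list, 1.58 in female and 0.32 in male cells, and was not called in either. Ch25h was scarce too, at 10.6 to 82.7 in female smoke, against 1.82 to 20.4 in female air.

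In the branches of the mevalonate arm and its electron donors, 3 of 9 genes rose and 2 fell in female cells, 2 rose and 3 fell in male cells. Aacs, which feeds ketone bodies into sterol synthesis, rose by 0.72 ± 0.18 in female (adjusted p = 0.00435) and 0.79 ± 0.18 in male cells (adjusted p = 0.00337). Cyb5r3, an electron donor to sterol desaturation, fell by 0.56 in female (SE 0.13, adjusted p = 0.00218) and 0.60 in male cells (SE 0.13, adjusted p = 0.00214). All 3 genes of esterification and lysosomal release fell in female cells, with Soat1, which esterifies cholesterol, at -0.52 ± 0.10 (adjusted p = 0.000334), and 1 of them, Nceh1, fell in male cells (-0.57 ± 0.14, adjusted p = 0.00669). Of 6 genes for transfer between membranes, 4 fell and 1 rose in female cells and 0 were called in male cells, with Gramd1b at -1.21 ± 0.46 (adjusted p = 0.0427), a call lost without female smoke insert 4 and female air insert 1 (-0.82 ± 0.36, adjusted p = 0.0655), and Gramd1c at -0.67 ± 0.14 (adjusted p = 0.000807) in female cells. Of 8 genes of sterol regulation, 2 rose in female cells, among them the SREBP protease gene Mbtps2 at 0.45 ± 0.08 (adjusted p = 0.000394), and 1 rose and 1 fell in male cells. The 1 that fell was Srebf1, which encodes SREBP-1, at -0.51 ± 0.11 (adjusted p = 0.0023).

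Markers of cell state moved beside these genes. Of all tested genes 15.5% were called higher and 19.3% lower in female cells, and 9.76% and 12.2% in male cells. Without female smoke insert 4 and female air insert 1 the shares were 21.9% and 23.8% in female and 22.5% and 24.7% in male cells. Of 9 measured ciliated cell markers 9 were called lower in female and 0 were called in male cells, where all 9 values were nevertheless below 0 (-1.81 to -1.03 on the log2 scale, median -1.38). Without female smoke insert 4 and female air insert 1, 6 of the 9 passed as lower in male cells and 9 in female cells. Their summed level ran from 102 to 11765 in female smoke, against 11505 to 22630 in female air, and from 299.5 to 4523 in male smoke, against 3711 to 6925 in male air. Of 5 secretory markers 4 were called lower in female and 2 in male cells, where the medians were -3.09 and -1.53, with sums of 25443 to 138403 in female smoke, against 144445 to 354419 in female air, and 73523 to 252721 in male smoke, against 387324 to 666919 in male air. Squamous markers rose in 3 of 5 cases in female and 5 of 5 in male cells. Proliferation markers were called higher in 5 of 6 cases in female and 0 of 6 in male cells, where the medians were 1.30 and 0.35, with sums of 6383 to 19861 in female smoke, against 3872 to 5418 in female air, and 2066 to 7204 in male smoke, against 3117 to 4642 in male air. With those 2 libraries left out 3 of 6 proliferation markers were called higher in female and 2 of 6 in male cells. Basal cell markers were mixed, with 1 of 6 higher and 1 lower in female and 2 higher and 2 lower in male cells. With the same libraries left out, squamous markers rose in 4 cases in female and 5 in male cells. Secretory markers then fell in 4 cases in female and 3 in male cells. Basal markers were then 2 higher and 1 lower in female and 2 higher and 2 lower in male cells.

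Fibroblast markers were low, with 5 of 7 genes below the filter on low values and sums over the 7 genes of 22.8 to 159.5 in female smoke, against 290.2 to 1509 in female air, and 29.7 to 97.0 in male smoke, against 167 to 429.6 in male air. Macrophage and leukocyte markers gave sums over 6 genes of 12353 to 47319 in female smoke, against 37124 to 142537 in female air, and 9579 to 65665 in male smoke, against 40626 to 51998 in male air. Most of these sums came from Lyz2, with a median of 20453 in female smoke and 59288 in female air, and Cd14, with a median of 7264 in female smoke and 4651 in female air, and both genes are also expressed in airway epithelium. Adgre1, a defining macrophage gene, was at 0 in both female groups and in male air. Of the 4 macrophage and leukocyte markers tested, 1 was called higher and 2 lower in female cells. In male cells 1 was called higher and 0 lower. Of all tested genes 15.5% were called higher and 19.3% lower in female cells, and 9.76% and 12.2% in male cells. Cd68 had the highest fold change of the 4 in both sexes, 0.77 in female and 1.53 in male cells. The part of these cell types in the sterol results was not tested.

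With its sign turned to smoke over air, the authors' deposited table called 18 members higher and 2 lower in female cells, and 18 higher and 4 lower in male cells. In female cells the authors' deposited table left out Pmvk, at 0.79 ± 0.41 (adjusted p = 0.143). In male cells the authors' deposited table added Acat2, Srebf2, Scap and Npc1 as higher and Ebp as lower, the last at -0.26 ± 0.11 (adjusted p = 0.0394). A limma fit of the male inserts alone gave the same counts, 18 higher and 4 lower.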

How the data were processed

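RNA-seq libraries of 24 inserts were grouped by the labels into 4 groups of 6. Per the submitters' processing notes, the tools included Trimmomatic 0.38.0, FastQC 0.11.9, HTSeq and DESeq2, with builds GRCm38 and mm10. The sources used here name no aligner and no strand setting. The deposited expression table holds normalised counts, a signal that the authors scaled per library, per the file headers. The authors' deposited comparison tables hold log2 fold changes, Wald scores and p-values, whose sign was turned to smoke over air. A deposited annotation gave positions (other values) and transcript lengths, per the file headers.

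Each value was a whole multiple of 1 read within 0.001 in 23 of 24 libraries (100% of values), so edgeR 4.0.16 and DESeq2 1.42.0 were run on the recovered read counts of these deposited columns as alternatives. The main test was limma 3.58.1 in R 4.3.3 on log2(normalised count + 1), with all 4 groups in 1 fit, a variance trend and Benjamini-Hochberg adjustment over the 13549 genes with a mean of at least 10. Every adjusted p of the report is from this fit unless another is named, and fold changes are on this scale, which understates those of low genes. A call is an adjusted p under 0.05, ± is the SE for fold changes, and intervals are at 95%. The fit was tested on simulated data. Depth was 16038813 to 24485024 reads per library, and this sets counting error only.

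The members and lists were chosen with earlier results of these data known. Related genes were named by a rule of at most 2 called genes per list with the largest change. Nr1h3, Nr1h2, Mylip and Ch25h were named outside this rule. Alternatives covered scaling, pseudocount, the filter, the samples fitted, a replicate block, leaving out each library, inserts 1 to 3 or 4 to 6 alone and the count tests. Values of related and marker genes, of levels per kilobase and of sex differences without female smoke insert 4 and female air insert 1 were an alternative chosen after seeing the data.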

Additional observations from a re-analysis of the deposited data

Results flagged for a closer look

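Of 108 combinations of a member gene and a group, 20 held 1 library far from the other 5 by Dixon's test at 95%, where chance flags about 1 group in 20. Female smoke insert 4 was the highest of its group for Pmvk at 2191 normalised counts, Msmo1 at 8573, Ebp at 2192, Sc5d at 2376 and Npc2 at 4786. Female air insert 1 accounted for 14 of the 20. It was the highest of its group for Pmvk at 1360.1, Mvd at 677, Fdps at 5797, Fdft1 at 2069, Msmo1 at 2513, Ebp at 3137 and Npc2 at 6253. It was the lowest for Idi1 at 89.8, Nsdhl at 348, Hsd17b7 at 100.4, Sc5d at 554, Dhcr7 at 834, Srebf2 at 2331 and Npc1 at 499. Male smoke insert 1 was the highest of its group for Hsd17b7 at 1938. The 2 female libraries are those with a transcript length trend, and the part of that trend in these values was not tested.

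Insig2 was flagged because its response differed between the sexes, with a female response minus male response of 0.49 on the log2 scale (limma, adjusted p = 0.0432).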

How the results depend on the processing

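A member's value was compared with its value under another setting 2089 times. Of these comparisons 1946 kept the call or its absence, 112 lost the call and 31 gained it. They cover the smoke change of each member in each sex and, for the sex difference in the response, Insig2 alone. Among called values 0 turned round. The 1946 include 22 values not called that changed sign. In female cells 21 members were called, and 19 to 23 with 1 library left out. Inserts 1 to 3 alone gave 1. In male cells 17 were called, and 10 to 19 with 1 library left out. Inserts 4 to 6 alone gave 3. Either subset leaves 3 inserts per group, and what the insert number stands for was not tested. Inserts 1 to 3 hold female air insert 1, and inserts 4 to 6 hold female smoke insert 4. The 1 call for a sex difference in the response, Insig2, became 0 under scaling by library total, without a filter, with the replicate block, on inserts 1 to 3 alone and with edgeR, and was 0 to 1 with 1 library left out. It became 2, with Pmvk, without female smoke insert 4 and female air insert 1. On inserts 4 to 6 alone the 1 call was Insig1 (adjusted p = 0.0291), and Insig2 was not called (adjusted p = 0.146). The cause was not tested.

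The main fit did not treat insert numbers as pairs, and the labels do not say whether they pair the samples. The correlation of same-numbered smoke and air inserts ran from -0.21 to 0.37 in female cells, where 5 of 6 exceeded 0.1 and 2 correlated best with their own number, and from -0.24 to 0.12 in male cells, where 1 of 6 did and 1 correlated best with its own. With the replicate block 21 members were called in female cells, 18 in male cells and 0 for the sex difference.

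Counts over all tested genes moved with the setting too. The female count was 4713, against 2857 with the female groups fitted alone and 656 on inserts 1 to 3. The male count was 2979, against 6148 with the male groups fitted alone, 4596 without female air insert 1, 6398 with female smoke insert 4 left out too and 931 on inserts 4 to 6. The count for the sex difference was 140, against 40 on inserts 1 to 3, 637 on inserts 4 to 6, 212 under quantile scaling, 506 with DESeq2 and 840 without female smoke insert 4 and female air insert 1. For related and marker genes, sex differences and levels per kilobase, the alternative without both libraries was chosen after seeing the data. It ended 6 calls and added 63. The other 439 values kept their call or its absence, or for levels per kilobase stayed within the SD of their group. Values not called could change sign among these.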
